A study of Mus musculus with 12 samples.

Results

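The unfolded protein response genes described here are 10 rows of a mouse hepatocyte count table, taken by symbol from a fixed list. They are the endoplasmic reticulum (ER) chaperones and folding enzymes Hspa5, Hsp90b1, Pdia4 and Calr, the transcription factors Xbp1, Atf4 and Ddit3, and the effectors Herpud1, Dnajb9 and Trib3. All 10 were found among the 37141 gene rows, and all 10 passed the low-count filter that left 10780 genes for testing. The list was chosen with earlier results of these data known.

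The study measured polyA RNA of FACS-sorted hepatocytes in 4 groups of 3 libraries, each made from 500000 cells, to compare regeneration after acute liver injury with and without YAP and TAZ. Mice of every group, controls included, carried floxed Yap and Taz alleles (Yapflox/flox; Tazflox/flox). The ctrl group was uninjured and had the effective genotype WT. The ctrl + CCl4 group had been given carbon tetrachloride (CCl4) at 1 ml/kg in corn oil by intraperitoneal injection 48 h earlier; hepatocytes convert this solvent into a toxic radical that kills cells around the central vein. The Yap/Taz KO group was injected in the tail vein with AAV8 carrying Cre under the TBG promoter, which is active in hepatocytes, at 5e11 genome copies, and 3 weeks were allowed for recombination. The Yap/Taz KO + CCl4 group had both treatments. The labels name no control vector and no vehicle injection for the other animals, and they give no age, no sorting gate and no batch. They do not say whether the 3 samples of a group are separate mice. The p-values below therefore reflect only how far these samples differ, and that may be technical.

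The unfolded protein response adjusts the folding capacity of the ER to its load through 3 membrane sensors. IRE1 (Ern1) removes a short intron from Xbp1 mRNA, so that an active XBP1 protein is made, which drives genes of ER-associated degradation and secretion. ATF6 is cut in the Golgi and its fragment drives chaperone genes such as Hspa5. PERK (Eif2ak3) phosphorylates eIF2alpha, which lowers translation in general and favours that of ATF4, and ATF4 in turn drives Ddit3 (CHOP), Trib3 and amino acid metabolism. Hepatocytes secrete most plasma proteins and carry a large ER. A count of 3′ tags measures mRNA level: it reports neither the splicing of Xbp1 nor the translation of Atf4.

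The promoter windows of the members were searched for sequence elements through which these branches are known to act. The matches printed here show which members carry which element, and the windows of Pdia4, Xbp1, Dnajb9, Atf4 and Ddit3 held none of the printed elements. The windows run from 250 bases before to 50 bases after the RefSeq transcript start (RefSeq, GRCm38.p6), and all 10 members had 1. The ER stress response element (ERSE) was searched as CCAAT, 9 bases and CCACG, and ERSE-II as ATTGG, 1 base and CCACG, on both strands. An ERSE was present in 3 of the 10 members' windows and in 39 of all 32851 windows (0.119%): Hspa5, Hsp90b1 and Calr had it, and the chaperone gene Pdia4 did not. An ERSE-II was present in 1 member, Herpud1, and in 12 windows in all (0.0365%). Each site below reads 5′ to 3′ on the strand of its gene, with the matched element in capitals; Hsp90b1 has 2, of which the lower one, like that of Calr, matched on the opposite strand.
Hspa5, chr2:34772020-34772048 (+ strand): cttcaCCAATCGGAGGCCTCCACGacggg
Hsp90b1, chr10:86705633-86705661 (− strand): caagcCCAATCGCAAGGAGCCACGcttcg
Hsp90b1, chr10:86705528-86705556 (− strand): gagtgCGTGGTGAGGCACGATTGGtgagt
Calr, chr8:84847070-84847098 (− strand): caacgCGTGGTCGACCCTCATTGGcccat
Herpud1, chr8:94386372-94386392 (+ strand): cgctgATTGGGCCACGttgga

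Elements of the ATF4 branch were found in 2 members. The C/EBP-ATF response element, searched as TGATGNAA on both strands, was present in the windows of Herpud1 and Trib3 and in 3.97% of all windows. The Herpud1 match is also a match to the core TTGCATCA, which is 1 form of this element read on the opposite strand, so both cover the same bases. That core was found in 0.895% of windows and in no other member. The Trib3 match lies 15 bases past the start.
Herpud1, chr8:94386312-94386329 (+ strand): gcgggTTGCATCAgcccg
Trib3, chr2:152344034-152344051 (− strand): caggtTTACATCAgccgg

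The 250 bases before the Herpud1 start show both of its elements together, the ATF-type site first and ERSE-II 52 bases before the start.
Herpud1, chr8:94386179-94386428 (+ strand): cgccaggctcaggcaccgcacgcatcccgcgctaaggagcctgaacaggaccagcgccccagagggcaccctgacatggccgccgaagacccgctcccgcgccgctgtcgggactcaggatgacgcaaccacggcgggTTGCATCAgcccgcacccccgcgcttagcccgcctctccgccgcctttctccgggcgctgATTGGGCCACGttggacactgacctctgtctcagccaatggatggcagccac

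The XBP1-type core ACGTG was present in 5 members and 19.6% of all windows, and in Herpud1 it overlaps ERSE-II. CCAAT alone was present in 8 members (37.4% of windows) and CCACG alone in 7 (32.8%). The cores TGACGTGG (0.676% of windows) and TGACGTCA (1.79%) were in none of the members' windows, and the Xbp1 window held no match to any of these motifs. A match is a description of letters, not evidence of binding.

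**Figure D1:**
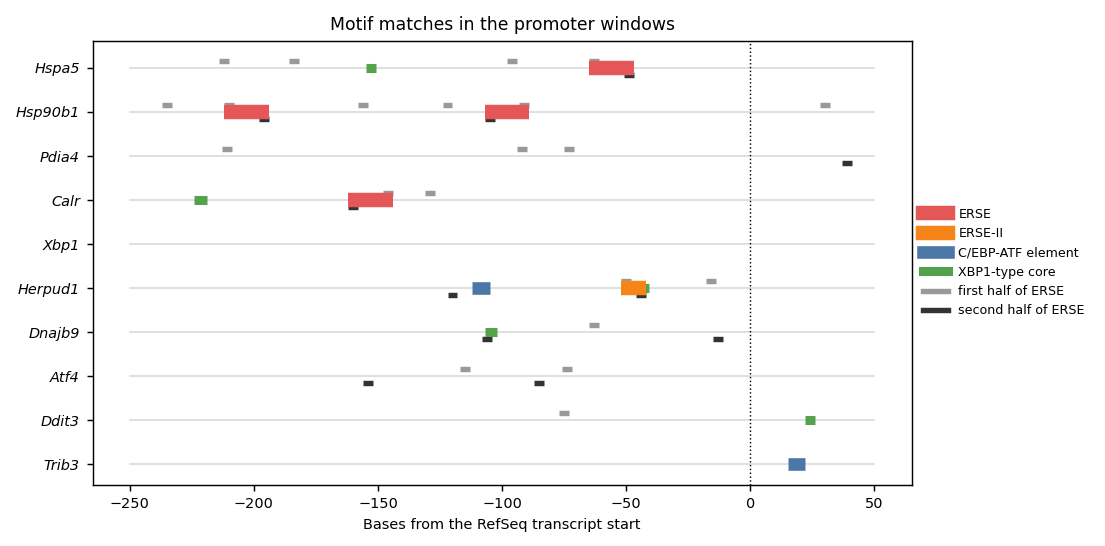
Matches to the searched elements in the promoter windows of the 10 members, as bases from the RefSeq transcript start (x axis) for each gene (y axis); colours mark the element. ERSE matches sit in Hspa5, Hsp90b1 and Calr, ERSE-II only in Herpud1 among the members, and C/EBP-ATF elements in Herpud1 and Trib3.

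The libraries held 1617761 to 3028951 counts, so that 1 count stood for 0.305 to 0.711 CPM (counts scaled to library size with edgeR's TMM factors). As a check of the labels, Yap1 averaged 58.0 ± 16.1 CPM (SD, n = 3) in ctrl and 15.6 ± 6.30 in Yap/Taz KO, and 56.6 ± 8.02 against 14.5 ± 0.313 after injury. No Yap/Taz KO library overlapped its control in Yap1, although edgeR's adjusted p was 0.102 and 0.0995 (over the alternatives 1.26e-05 to 0.877 and 6.92e-07 to 0.625). Wwtr1, which encodes TAZ, did not overlap either (log2 fold change -1.40 and -0.53, adjusted p 0.235 and 0.983). Hepatocyte markers dominated every library (60987 to 178315 CPM summed over 11 genes). Their sum was lower after injury in both genotypes. Macrophage markers (14 genes) ran from 843 to 4013 CPM in uninjured and from 3340 to 6831 CPM in injured libraries. The 4013 CPM was ctrl 1, against 1142 and 1548 in ctrl 2 and 3. Ctrl 1 also exceeded them in endothelial (1749 against 429 and 635), stellate (1503 against 373 and 571) and erythroid sums (1584 against 19.6 and 154). Its hepatocyte sum (133448) lay between theirs (127876 and 173272). The part of this in the member values of ctrl 1 was not tested. Digestive enzyme genes of pancreatic acinar cells, which are not a liver product, were highest in ctrl 1 (2073 CPM summed over 13 genes), Yap/Taz KO 1 (7179), Yap/Taz KO + CCl4 1 (2314) and Yap/Taz KO + CCl4 2 (8881), and summed to between 28.2 and 341 CPM in the other 8 libraries. In bulk RNA, fewer cells of a type and less RNA per cell cannot be told apart, which holds for every result below.

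After CCl4, 1 of the 10 genes changed in control hepatocytes: Herpud1 fell to 0.363 of its uninjured level. None of the 4 ER chaperone and folding genes changed in either genotype, and neither did Xbp1, Atf4, Ddit3, Dnajb9 or Trib3 at the threshold used (edgeR quasi-likelihood test, Benjamini-Hochberg adjusted p under 0.05 over all 10780 genes). In the injury response of control hepatocytes 22.5% of all tested genes were called, 10.5% as higher and 12% as lower, so 1 call among 10 genes is not above the background share. In Yap/Taz KO hepatocytes 17.8% of all genes were called after injury and 0 of the 10 members. At an unadjusted edgeR p under 0.05 there were 2 members in each injury response, against 33.6% of all genes in controls and 30.6% in knockouts. The median log2 fold change of the members was -0.13 in both genotypes, beside 0.03 over all tested genes. All fold changes are relative to the bulk of genes: scaled by library totals, the median gene was higher by 0.36 in the injury response of controls and by 0.37 in that of knockouts. With that scaling 73.9% and 81.7% of the called genes were higher, against 46.8% and 53% with TMM.

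**Figure D2:**
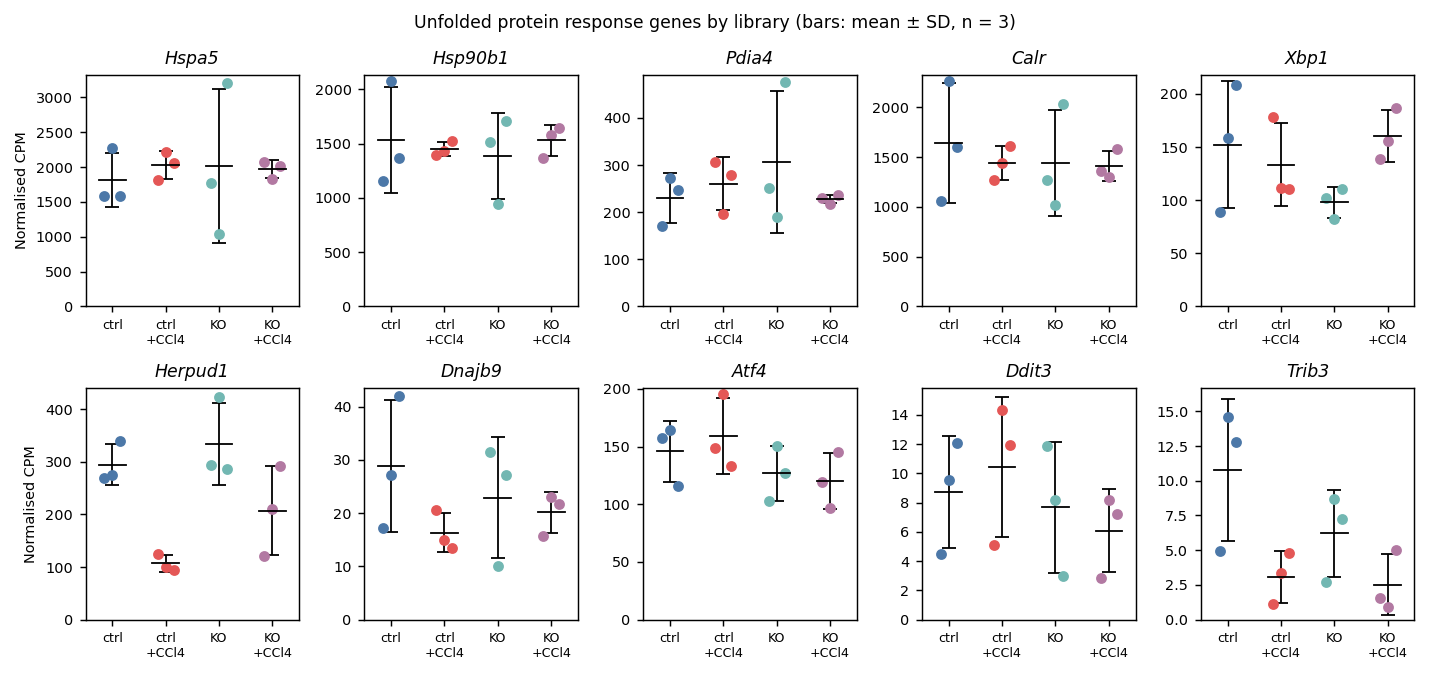
Normalised CPM (y axis, from 0, a separate scale for each gene) of the 10 members in the 4 groups; each point is 1 library, in replicate order from left to right, with the mean and SD of 3 libraries as bars. Herpud1 lies between 269 and 340 CPM in ctrl and between 95.0 and 126 CPM in ctrl + CCl4, with no overlap, while the injured values of Hspa5 and Hsp90b1 lie inside the range of the uninjured ones.

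Hspa5 encodes BiP, the ER's HSP70 chaperone, which also holds the 3 sensors inactive. Its level was 1587, 2267 and 1584 CPM in ctrl and 1811, 2214 and 2060 CPM in ctrl + CCl4. In Yap/Taz KO it was 1777, 1043 and 3213 CPM, and in Yap/Taz KO + CCl4 2079, 1828 and 2020 CPM. The lowest and the highest of the 12 libraries were thus both uninjured knockouts, and all 6 injured libraries fell inside that range. The log2 fold change after injury was 0.16 in controls (95% interval -0.50 to 0.82, adjusted p 0.757) and -0.03 in knockouts (-0.69 to 0.64, adjusted p 0.971). A p above the threshold does not show equal levels: these intervals reach up to 0.82 and down to -0.69 on the log2 scale.

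Hsp90b1 encodes GRP94, the ER's HSP90 chaperone, which folds selected clients such as integrins and Toll-like receptors. It stood at 1153, 2079 and 1363 CPM in ctrl and at 1399, 1430 and 1523 CPM in ctrl + CCl4. The Yap/Taz KO libraries had 1515, 945 and 1706 CPM and the Yap/Taz KO + CCl4 libraries 1368, 1582 and 1640 CPM. As with Hspa5, the injured values lay within the uninjured range. Its log2 fold change was -0.08 in controls (-0.62 to 0.46) and 0.14 in knockouts (-0.40 to 0.68).

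Calr encodes calreticulin, a lectin chaperone that binds glycoproteins and stores ER calcium. Its values were 1060, 2261 and 1597 CPM in ctrl, and 1269, 1440 and 1608 CPM in ctrl + CCl4. They were 1270, 1014 and 2033 CPM in Yap/Taz KO, and 1356, 1300 and 1581 CPM in Yap/Taz KO + CCl4. Groups overlapped in both genotypes, with log2 fold changes of -0.19 (-0.80 to 0.42) and -0.03 (-0.64 to 0.58). Pdia4 encodes ERp72, a protein disulfide isomerase. It measured 171, 272 and 248 CPM in ctrl, 305, 197 and 280 in ctrl + CCl4, 252, 189 and 476 in Yap/Taz KO, and 229, 218 and 236 in Yap/Taz KO + CCl4. Its groups overlapped too, and the log2 fold change was 0.18 in controls (-0.47 to 0.82) and -0.43 in knockouts (-1.07 to 0.22).

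These 4 genes varied more between uninjured than between injured libraries of the knockout. The highest Hspa5 value was 3.08 times the lowest in Yap/Taz KO and 1.14 times in Yap/Taz KO + CCl4. For Pdia4 the same ratios were 2.52 and 1.08. The SD of log2 CPM of Hspa5 was 0.81 in Yap/Taz KO, where 84.1% of tested genes had a smaller SD, and 0.10 in Yap/Taz KO + CCl4, where 8.84% did. In controls the SD of Hsp90b1 was 0.44 without and 0.06 with injury, and that of Calr 0.55 and 0.17. Only Pdia4 in controls kept about the same SD (0.35 and 0.33). The median SD of all genes also was larger in uninjured groups: 0.52 in ctrl and 0.38 in Yap/Taz KO, against 0.30 and 0.29 after injury. These spreads are of 3 libraries each and were not tested.

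The 4 chaperone genes were compared with each other library by library. Over the 6 uninjured libraries the log2 CPM of the 6 chaperone pairs correlated with Pearson's r from 0.683 to 0.913 and Spearman's rho from 0.771 to 0.943. None passed after adjustment over the 12 relations computed (exact permutation test, two-sided, adjusted p of r 0.125 to 0.244), and r without the 2 libraries farthest from the median was 0.621 to 0.959. Over the 6 injured libraries the same pairs had r from -0.512 to 0.600 and rho from -0.600 to 0.543 (adjusted p of r 0.355 to 0.946), and the difference between the 2 states was not tested. Deviations of log2 CPM from the group means, over all 12 libraries, correlated with r from 0.725 to 0.886 for these pairs (median 0.808) and from -0.565 to 0.789 for the other 39 pairs of members (median 0.162). All pairs share libraries and their scaling. Library ctrl 2 had the highest ctrl value of all 4 genes. Yap/Taz KO 2 had the lowest and Yap/Taz KO 3 the highest value of all 4 among the uninjured knockouts. In the same 3 knockout libraries the cytosolic heat shock genes (13 genes, led by Hsp90ab1) summed to 2416, 4215 and 4321 CPM and the acinar genes to 7179, 55.0 and 160 CPM, so both lists ranked these libraries in another order than the chaperones did, with the heat shock sum, like the chaperones, highest in Yap/Taz KO 3. Their part in the spread was not tested. B and plasma cell markers summed to 12.5 to 76.8 CPM over 10 genes, led by Fkbp11, which is itself an ER folding gene, and their part was not tested either.

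**Figure D3:**
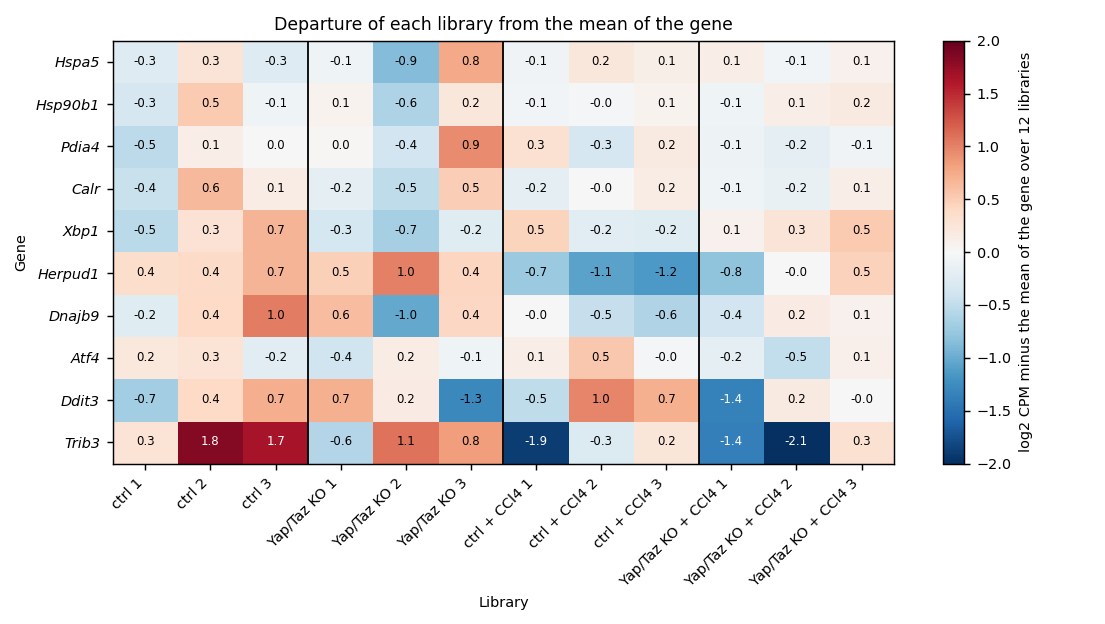
Log2 CPM of each member minus its mean over the 12 libraries (colour and printed value), with genes in rows and libraries in columns, uninjured groups on the left. The 4 chaperone rows share their highs and lows in the uninjured columns, as in Yap/Taz KO 2 and 3. Herpud1 is lowest in the ctrl + CCl4 columns and in Yap/Taz KO + CCl4 1.

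Xbp1 encodes the transcription factor of the IRE1 branch, and its own mRNA is the IRE1 substrate. It stood at 89.3, 159 and 208 CPM in ctrl and at 178, 111 and 111 CPM in ctrl + CCl4, with a log2 fold change of -0.19 (adjusted p 0.698). In knockouts it stood at 102, 82.0 and 110 CPM uninjured and at 139, 155 and 187 CPM injured. The knockout groups did not overlap, with all 3 injured libraries higher, as was so for 21.2% of all tested genes. The log2 fold change was 0.71 (SE 0.29, 95% interval 0.08 to 1.33) at an adjusted p of 0.113, short of the threshold. It passed in 3 alternatives: with library totals (1.07, adjusted p 0.0213), with only the 6 knockout libraries (0.71, adjusted p 0.0294), and without ctrl replicate 1 (0.70, adjusted p 0.0474). The difference between the 2 injury responses, the knockout minus the control one, was 0.89 on the log2 scale (edgeR unadjusted p 0.0473, adjusted p 0.614).

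Herpud1 encodes HERP, an ER membrane protein that helps the degradation complex assemble, and its promoter carries the ERSE-II and the ATF-type site printed above. Its level was 269, 274 and 340 CPM in ctrl (294 ± 39.3, SD, n = 3) and 126, 100 and 95.0 CPM in ctrl + CCl4 (107 ± 16.4). Every injured control library was lower than every uninjured one, which held in this direction for 17.5% of all tested genes. Herpud1 fell by 1.46 on the log2 scale (SE 0.29, 95% interval -2.08 to -0.85, adjusted p 0.00214), a ratio of 0.363. The call was kept under all 18 alternatives run for it, with log2 fold changes from -1.58 to -1.08. In the same comparison 9 of 11 tested hepatocyte markers fell and 4 of 14 macrophage markers rose, beside 12% and 10.5% of all genes. In the injury response of knockouts 3 of these 11 hepatocyte markers fell and 5 of these 14 macrophage markers rose. There, 900 of all 10780 genes were called lower and 1016 higher. The part of these markers in the fall of Herpud1 was not tested.

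In knockouts, Herpud1 had 293, 424 and 286 CPM uninjured and 121, 210 and 291 CPM injured. Replicate 3 of Yap/Taz KO + CCl4 lay inside the uninjured range and the other 2 below it. The log2 fold change was -0.69 (95% interval -1.29 to -0.09, adjusted p 0.109), and without that replicate -1.01 (adjusted p 0.0326). The injury response of Herpud1 differed between genotypes by 0.77 on the log2 scale (95% interval -0.08 to 1.62, edgeR adjusted p 0.634), so a smaller fall in knockouts was not shown. The spread of Herpud1 in Yap/Taz KO + CCl4 was large (SD of log2 CPM 0.64, with 89.2% of genes below it), in contrast to the chaperones in the same libraries.

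Dnajb9 encodes ERdj4, a J-domain cochaperone of BiP and a target of XBP1. It was low, at 17.3, 27.2 and 41.9 CPM in ctrl, 20.5, 14.9 and 13.5 in ctrl + CCl4, 31.4, 10.1 and 27.3 in Yap/Taz KO and 15.8, 23.1 and 21.7 in Yap/Taz KO + CCl4. The injured and uninjured groups overlapped in both genotypes. The log2 fold change was -0.80 in controls (adjusted p 0.185) and -0.18 in knockouts.

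Atf4 encodes the transcription factor of the PERK branch. Its level was 158, 164 and 116 CPM in ctrl, 148, 196 and 133 in ctrl + CCl4, 103, 151 and 127 in Yap/Taz KO and 119, 96.7 and 145 in Yap/Taz KO + CCl4. All 4 groups overlapped, and the log2 fold change after injury was 0.12 in controls and -0.08 in knockouts. Ddit3 encodes CHOP, a transcription factor linked to cell death under lasting ER stress. It was low, with 7 to 47 counts in a library, and measured 4.52, 9.56 and 12.1 CPM in ctrl, 5.13, 14.3 and 11.9 in ctrl + CCl4, 11.9, 8.20 and 2.98 in Yap/Taz KO, and 2.84, 8.21 and 7.22 in Yap/Taz KO + CCl4. Its log2 fold change was 0.30 in controls (95% interval -0.95 to 1.55) and -0.32 in knockouts (-1.59 to 0.96), and the test does not tell a change within these bounds from none. The Ddit3 locus also overlaps Mars and Gm4189 on the other strand and another annotated Ddit3 entry. Herpud1 overlaps Gm15890, and Dnajb9 overlaps Mir5627, on the other strand. Hsp90b1 overlaps Gm15344 and Gm25745 on its own strand and 1810014B01Rik on the other, and Pdia4 overlaps Mir704 on its own. How the counting assigned such reads is not stated in the labels.

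Trib3 encodes a pseudokinase that CHOP and ATF4 induce. Its counts were the lowest, 3 to 29 in a library. It stood at 4.94, 14.6 and 12.8 CPM in ctrl and at 1.10, 3.36 and 4.83 CPM in ctrl + CCl4, with the injured libraries lower. The groups were apart by less than 1 count: 4.94 CPM was 12 counts in ctrl 1, and 4.83 was 15 in ctrl + CCl4 3. Scaled by library totals, these 2 libraries had 4.69 and 6.30 CPM, so the groups overlapped. The log2 fold change was -1.75 (SE 0.72) with an adjusted p of 0.0955, which missed the threshold. Without ctrl replicate 1 it was -2.11 with an adjusted p of 0.0370. In knockouts Trib3 stood at 2.71, 8.69 and 7.24 CPM uninjured and at 1.58, 0.948 and 5.02 CPM injured, which overlapped (-1.30, adjusted p 0.255). Without Yap/Taz KO + CCl4 replicate 3 that value was -2.27. With TMM scaling, Herpud1 and Trib3 were the 2 of 10 members whose ctrl and ctrl + CCl4 libraries did not overlap, Trib3 by less than 1 count. Of all genes, 17.5% were lower in this way.

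**Figure D4:**
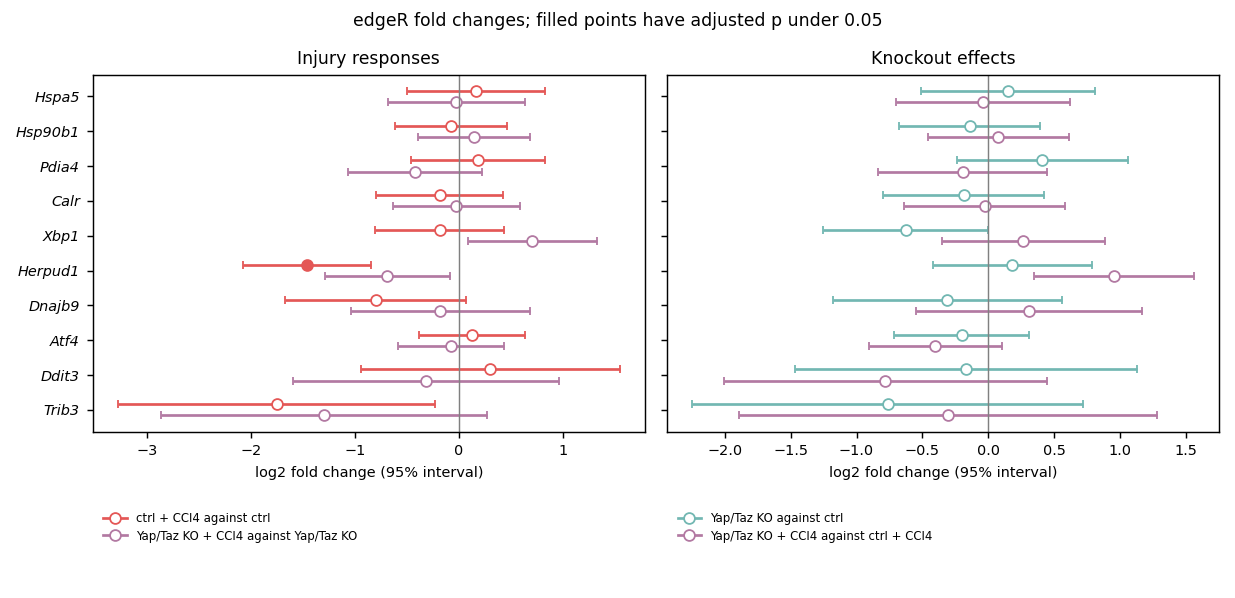
Log2 fold changes with 95% intervals (x axis) of the 10 members (y axis) in the 2 injury responses (left) and the 2 knockout effects (right), from edgeR; filled points have an adjusted p under 0.05. The only filled point is Herpud1 after injury in controls, at -1.46; the x axes of the panels differ.

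Between genotypes none of the 10 genes passed the threshold, in uninjured or in injured hepatocytes. The targeted genes Yap1 and Wwtr1 did not pass it either. Background shares were 0% in both comparisons and in the difference between the injury responses, so the count of 0 carries no contrast with other genes. At an unadjusted edgeR p under 0.05 the uninjured comparison held 0 of the 10 members and 1020 genes in all (9.46%), the injured one 1 member and 613 genes (5.69%), and the difference between the responses 1 member and 874 genes (8.11%). DESeq2 called 39, 18 and 11 genes in these 3 comparisons, none of them a member. The median log2 difference of the members was -0.18 without injury and -0.03 with it, beside -0.03 and -0.01 over all genes.

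The member with an unadjusted p under 0.05 after injury was Herpud1, whose knockout minus control difference was 0.96 on the log2 scale (unadjusted p 0.00442, adjusted p 0.759, edgeR). Its injured groups overlapped only through Yap/Taz KO + CCl4 replicate 1, at 121 CPM, against 126 CPM in ctrl + CCl4 replicate 1. Xbp1 differed by -0.63 without injury (unadjusted p 0.0503, adjusted p 0.528) and by 0.27 with it. The chaperone genes differed by 0.15 (Hspa5), -0.14 (Hsp90b1), 0.41 (Pdia4) and -0.19 (Calr) without injury, and by -0.04, 0.08, -0.19 and -0.03 with it. The PERK branch genes Atf4, Ddit3 and Trib3 differed by -0.20, -0.17 and -0.76 without injury and by -0.40, -0.78 and -0.31 with it, all on the log2 scale. No member's groups failed to overlap in either knockout comparison, where 10.7% and 16.3% of all genes did so.

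The wider pathway was read from 4 lists that leave the 10 members out. Markers of some other cells moved in the same injury responses. Of 14 macrophage markers 4 rose in controls and 5 in knockouts, and of 7 monocyte and neutrophil markers 4 and 7. Of 11 stellate and fibroblast markers 3 and 5 rose, of 4 B and plasma cell markers 0 and 1. Of 2 tested cholangiocyte markers 1 rose in each response. The sum over 6 cholangiocyte genes, led by Spp1, was 41.2 to 67.5 CPM in ctrl and 381 to 459 in ctrl + CCl4. It was 38.4 to 69.8 CPM in Yap/Taz KO and 92.3 to 219 in Yap/Taz KO + CCl4. Of 4 erythroid markers 2 fell in controls and 0 in knockouts, and of 11 hepatocyte markers 9 and 3 fell. None of 11 sinusoidal endothelial or 11 tested acinar markers was called in either response. Of all 10780 genes, 1137 (10.5%) were called higher in controls and 1016 in knockouts, and 1290 (12%) and 900 lower. The part of these markers in the changes of the 4 lists was not tested. Of 22 further ER chaperones and folding enzymes, 21 were tested. In controls 2 rose and 2 fell after injury (median log2 fold change 0.01, 17 not called), and in knockouts 5 rose and 0 fell (median 0.29). These 4 and 5 calls among 21 genes stand beside 22.5% and 17.8% of all genes called, and the medians beside 0.03 over all genes in both. Dnajc10, an ER reductase that opens disulfides of degradation substrates, rose from 39.2 ± 8.13 to 114 ± 4.71 CPM in controls (log2 fold change 1.54, adjusted p 0.000156, edgeR) and from 30.6 ± 4.65 to 95.8 ± 12.3 CPM in knockouts (1.64, adjusted p 0.000144; SD, n = 3). Erp29, a PDI-like escort protein, rose by 0.84 in both genotypes on the log2 scale. In controls Cnpy2 and Sil1, the nucleotide exchange factor of BiP, each fell by 0.92, and in knockouts Sdf2l1 (1.29), Txndc5 (0.95) and Pdia6 (0.67) rose. The call of Cnpy2 was lost with library totals (-0.55, adjusted p 0.111) and that of Erp29 in knockouts without Yap/Taz KO replicate 2 (adjusted p 0.0619) or Yap/Taz KO + CCl4 replicate 3 (0.0557). The 5 calls in knockouts became 1 without either of these 2 libraries, 2 without Yap/Taz KO replicate 1, and 3 without Yap/Taz KO + CCl4 replicate 1 or 2, and the 4 in controls became 2 without ctrl + CCl4 replicate 3.

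All 24 genes of ER-associated degradation and translocation were tested. In controls 1 rose and 2 fell (median -0.15), and in knockouts 4 rose and 1 fell (median -0.03), or 3 and 5 calls among 24 genes beside the 22.5% and 17.8% of all genes. Ssr1, a subunit of the translocon-associated complex, rose by 0.88 in controls and 0.80 in knockouts. In knockouts Sec61b, a subunit of the translocation channel, rose from 61.3 ± 11.4 to 153 ± 16.4 CPM (1.31, adjusted p 0.000599, edgeR; n = 3), together with Edem2 (0.93) and Ssr3 (0.69). In controls Sec61b went from 106 ± 13.2 to 125 ± 14.2 CPM, which overlapped, and the difference between the responses was 1.08 (adjusted p 0.533). Os9, a lectin that hands misfolded glycoproteins to the degradation complex, fell in both genotypes (-0.57 and -0.93). With library totals the call of Os9 in knockouts (-0.56, adjusted p 0.057) was lost. Ssr1 in controls missed the threshold without ctrl replicate 3 (adjusted p 0.0585), ctrl + CCl4 replicate 1 (0.0733) or ctrl + CCl4 replicate 3 (0.0602). The 3 calls in controls became 1 without ctrl + CCl4 replicate 1 or 2 and 0 without replicate 3. The 5 in knockouts became 2 without any 1 of 8 libraries: the 6 knockout ones, ctrl + CCl4 replicate 1 and ctrl + CCl4 replicate 3.

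Of 17 genes for the sensors and their processing, 16 were tested, with 4 calls in each injury response beside the same 22.5% and 17.8% of all genes (median 0.01 in controls and 0.10 in knockouts). In controls Creb3l1 and Creb3l2, membrane-bound factors related to ATF6, rose (log2 fold change 2.04 and 0.85), and Tmbim6 and Ern1, the IRE1 sensor itself, fell (-1.37 and -1.05). In knockouts Creb3l1 rose (2.53), and Atf6 (-1.11), Tmbim6 (-0.89) and Creb3l3 (-0.87) fell. Tmbim6, known as BAX inhibitor 1, an ER protein that restrains IRE1, fell from 1396 ± 382 to 538 ± 46.0 CPM in controls and from 1098 ± 266 to 594 ± 49.5 CPM in knockouts (n = 3). Atf6 was 82.9 ± 7.22 CPM in Yap/Taz KO, above every library of the other 3 groups, whose means were 45.6 in ctrl, 48.1 in ctrl + CCl4 and 38.4 in Yap/Taz KO + CCl4. That knockout difference without injury was 0.86 on the log2 scale (adjusted p 0.258, edgeR), and the difference between the injury responses of Atf6 was -1.19 (unadjusted p 0.00124, adjusted p 0.533). Creb3l1 was a low gene, with 18 counts in ctrl and 117 in ctrl + CCl4 over 3 libraries, and its call in controls was lost without ctrl replicate 2, ctrl + CCl4 replicate 2 or ctrl + CCl4 replicate 3 (adjusted p 0.0583 to 0.102). Its call in knockouts was lost without Yap/Taz KO + CCl4 replicate 1 (adjusted p 0.0528). The 4 calls in controls became 2 without ctrl replicate 2, ctrl + CCl4 replicate 1 or 2, or Yap/Taz KO + CCl4 replicate 1, and 1 without ctrl + CCl4 replicate 3. The 4 in knockouts became 1 without Yap/Taz KO + CCl4 replicate 1.

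Of 38 further targets of ATF4 and the integrated stress response, 32 were tested, and they held the largest changes of the 4 lists. In controls 4 rose and 7 fell (median 0.20), and in knockouts 4 rose and 4 fell (median -0.04), or 11 and 8 calls among 32 genes beside the 22.5% and 17.8% of all genes. In controls those that rose were Psat1, Mthfd2 (2.84), Aldh18a1 (2.77) and Pck2 (2.58), and in knockouts Psat1 (4.29), Mthfd2 (4.55), Psph (3.79) and Aldh18a1. Psat1, an enzyme of serine synthesis, had 3 counts in the 3 ctrl libraries and 250 in ctrl + CCl4, a CPM ratio of 53.3 (95% counting interval 18.0 to 260.1, covering counting error only). Aldh18a1, an enzyme of proline synthesis, had 2 counts in Yap/Taz KO and 71 in Yap/Taz KO + CCl4. Mthfd2, a mitochondrial folate enzyme, rose from 2.65 ± 1.04 to 18.8 ± 2.44 CPM in controls and from 0.702 ± 0.834 to 16.3 ± 3.98 CPM in knockouts (n = 3). The knockout rise of Mthfd2 rests on 4 counts in Yap/Taz KO; its log2 fold change was 5.89 without Yap/Taz KO replicate 1 and 3.92 without Yap/Taz KO replicate 3. The fitted value of Psat1 in controls, 5.64, was 6.34 without ctrl replicate 1.

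Among those that fell, Cth, which makes cysteine from cystathionine, fell from 473 ± 174 to 47.1 ± 18.6 CPM in controls (-3.33, adjusted p 2.49e-05, edgeR) and from 370 ± 135 to 81.7 ± 24.9 CPM in knockouts (-2.18, adjusted p 0.000713). Vldlr, a lipoprotein receptor, fell in both (log2 fold change -3.04 and -2.76), and so did Bbc3, which encodes the pro-apoptotic PUMA (-2.36 and -1.42). The tRNA synthetase gene Tars fell too (-0.62 and -0.63), and in controls Ddit4 (-1.81), Eif2ak4 (-0.97) and Shmt2 (-0.78), a mitochondrial enzyme of serine and one-carbon metabolism, fell as well. The 11 calls in controls became 7 without ctrl replicate 2 or ctrl + CCl4 replicate 3, 6 without ctrl replicate 3 or ctrl + CCl4 replicate 2, and 5 without ctrl + CCl4 replicate 1. In both knockout comparisons and in the difference between the responses, 0 genes of the 4 lists passed the threshold, as was so for all tested genes.

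**Figure D5:**
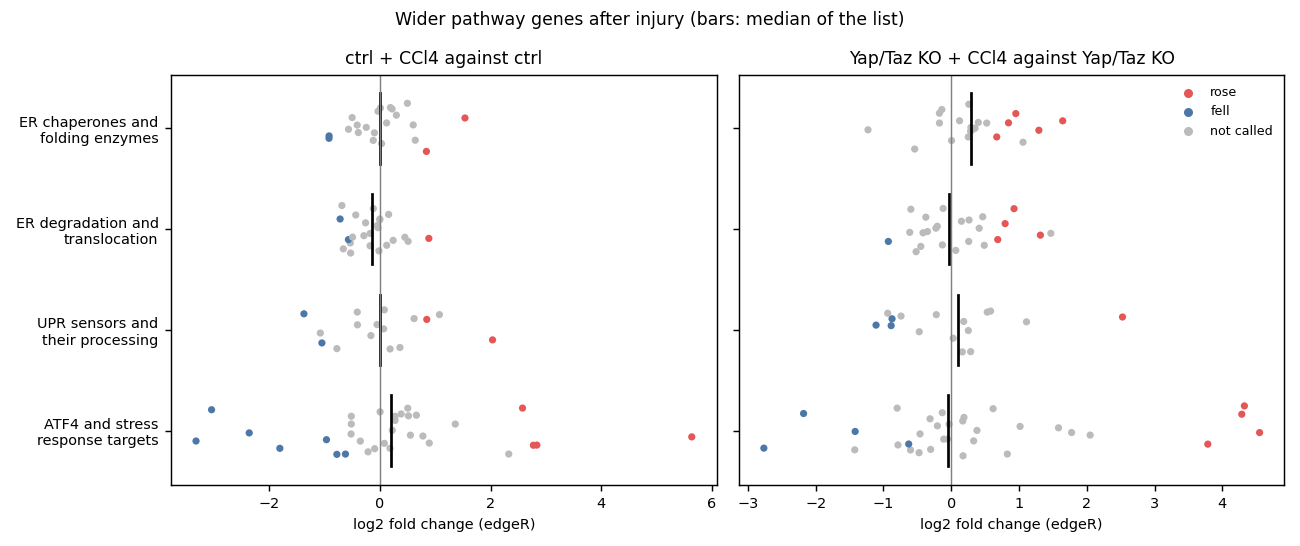
Log2 fold changes after injury (x axis) of the tested genes of the 4 wider lists (y axis), in controls (left) and knockouts (right); each point is a gene, red if it rose, blue if it fell and grey if not called, and black bars are list medians. The first 3 lists stay mostly within 1 of 0, while the ATF4 list reaches from -3.33 to 5.64 in controls; the x axes of the panels differ, and the Psat1 point rests on 3 ctrl counts.

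The genes whose log2 CPM followed that of Hspa5 most closely over the 12 libraries were Gpatch11 (Pearson r 0.917), Iqce (0.903), Creld2 (0.895), Tbc1d13 (0.894) and Bbx (0.846). Creld2 encodes an ER-resident protein. For Trib3 they included Atg4b (0.937), Zfp467 (0.909), Eif3f (0.902) and Synj2bp (0.894). They were picked as the highest of all tested genes, and the libraries share groups and scaling, so the values are descriptions.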

How the data were processed

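PolyA RNA of sorted hepatocytes was sequenced in 12 libraries made with the QuantSeq 3′ FWD kit, per the labels' protocols; this kit reads 1 tag from the 3′ end of a transcript. The authors deposited 1 table of raw counts per gene symbol, whole numbers with unequal totals and hence unscaled. The submitters' processing notes list STAR 2.6.1d, cutadapt, FastQC, mm10 and GRCm38 and assign them no roles. Not given in the sources used here were the counter, its strand setting, the annotation, and whether molecular identifiers were used. Counting intervals cover counting error only.

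The test was that of edgeR 4.0.16 (R 4.3.3): filterByExpr (minimum count 10, minimum total count 15), TMM scaling, 4 group coefficients over all 12 libraries, and quasi-likelihood F tests of 5 comparisons with Benjamini-Hochberg adjustment at 0.05 over 10780 genes. The SE is the log2 fold change divided by the root of F, and 95% intervals use the test's degrees of freedom. CPM are TMM-normalised; correlations used a prior count of 2 for genes likest to Hspa5 and Trib3.

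Named genes were the 10 members in every comparison, the 2 genes with the smallest p of each wider list in each injury response, the 5 genes correlating best with Hspa5 and with Trib3, the leading genes and summed CPM of marker lists, Yap1 and Wwtr1. Values of 2 genes that this rule took are not reported here. Other list genes past the threshold were named after their values were seen. The members and lists were chosen with earlier results of these data known. Alternatives were scaling by RLE factors or by library totals, omission of the low-count filter, DESeq2 1.42.0, a replicate block, the 6 libraries compared, and leaving out each library in turn; those for the wider lists were chosen after seeing the data. Promoter sequences are from RefSeq (GRCm38.p6), gene overlaps from GENCODE on the same build, in which 36460 of 37141 symbols were found. Replicates differed by more than sampling noise in every pair (chi-square per degree of freedom 9.27 to 29.5), so none was taken for a repeat deposit; this does not show that they are separate animals.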

Additional observations from a re-analysis of the deposited data

How the results depend on the processing

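Herpud1 in the injury response of controls stayed past the threshold under all 18 alternatives (adjusted p 2.6e-06 to 0.0143). The count of members past the threshold there was 1, became 2 with the replicate block, and ran from 1 to 2 when 1 library was left out. In knockouts it was 0, became 1 with library totals and 1 with the 6 libraries compared, and ran from 0 to 1. Over all genes, the injury response of knockouts ran from 1176 to 2331 calls with 1 library left out, lowest without Yap/Taz KO + CCl4 replicate 1 and 1190 without Yap/Taz KO replicate 2, and that of controls from 1666 to 3173. The knockout effect without injury was 0 genes, 210 without the low-count filter, 39 with DESeq2, and 0 to 1 with a library left out. After injury it was 0, 109, 18, 5 with the 6 libraries compared, and 0 to 3, highest without Yap/Taz KO + CCl4 replicate 3. The difference between the responses was 0, 115 without the filter and 11 with DESeq2. In controls the degradation list had 3 calls, 1 without the filter, 1 with the 6 libraries compared, and 0 to 3 with a library left out; the sensor list 4, 2 with the 6 libraries and 1 to 5; the ATF4 list 11, 7 with the 6 libraries and 5 to 13; and the chaperone list 4, from 2 to 5. In knockouts the ranges were 1 to 6 for chaperones, 2 to 6 for degradation, 1 to 6 for sensors and 6 to 9 for ATF4 targets. The cause was not tested.

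No called member changed sign. Uncalled log2 fold changes near 0 did with library totals: in controls Hsp90b1 (0.30), Calr (0.19) and Xbp1 (0.20), in knockouts Hspa5 (0.30), Calr (0.31), Dnajb9 (0.17), Atf4 (0.30) and Ddit3 (0.0907), and Hsp90b1 in the injured knockout effect (-0.0644). Hspa5 in knockouts was 0.000402 with RLE factors, 0.00195 with DESeq2 and 0.0257 with the replicate block, and Calr 3.4e-05 with DESeq2. With 1 library left out, the ranges of some uncalled log2 fold changes crossed 0. In the injury response of controls they were those of Hsp90b1 (-0.25 to 0.21), Calr (-0.42 to 0.12), Xbp1 (-0.46 to 0.11), Atf4 (-0.0275 to 0.24), Ddit3 (-0.0305 to 0.63). In that of knockouts they were those of Hspa5 (-0.34 to 0.49), Hsp90b1 (-0.0757 to 0.32), Pdia4 (-0.68 to 0.0444), Calr (-0.23 to 0.31), Dnajb9 (-0.54 to 0.0978), Atf4 (-0.23 to 0.0637), Ddit3 (-0.72 to 0.13). In the uninjured knockout effect they were those of Hspa5 (-0.36 to 0.47), Hsp90b1 (-0.31 to 0.15), Pdia4 (-0.055 to 0.67), Calr (-0.52 to 0.12), Herpud1 (-0.0186 to 0.30), Dnajb9 (-0.58 to 0.0553), Ddit3 (-0.61 to 0.24). In the injured one they were those of Hspa5 (-0.11 to 0.016), Calr (-0.11 to 0.0712), Trib3 (-1.27 to 0.16). In the difference between the responses they were those of Hspa5 (-0.50 to 0.32), Hsp90b1 (-0.0704 to 0.39), Calr (-0.15 to 0.49), Trib3 (-0.51 to 0.92).

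The labels state no pairing of same-numbered samples, and the values did not settle it. Of 18 same-numbered pairs, 7 had a correlation of deviations over 0.1 (range -0.152 to 0.323). Of 12 samples, 7 correlated best with a sample of their own number. A batch shared by number was not tested. With the replicate block Trib3 passed in controls (-1.85, adjusted p 0.0411) beside Herpud1 (-1.44, adjusted p 0.0027). Ddit3 and Trib3 had the fewest counts (3 to 47 in a library) and the widest intervals of the members; how much of that width is depth was not tested.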
